A study of Mus musculus with 48 samples.

Results

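The genes of the colonic mucus layer described here are 10 of the 55401 genes counted in the colon of mice with and without an intestinal clock. They are the mucins Muc1, Muc2, Muc3, Muc3a, Muc4 and Muc13 and the mucus layer proteins Fcgbp, Clca1, Zg16 and Agr2, chosen as the rows whose Ensembl identifier carries these symbols in GENCODE vM21, and all 10 were found. Whole colon tissue was taken from adult male mice on the C57BL/6J background after transfer to constant darkness (day 2), at CT1, CT5, CT9, CT13, CT17 and CT21, where CT is circadian time in hours. Bmal1 IEC-/- mice carry floxed Bmal1 alleles and a Cre recombinase driven by the villin promoter, which is active in intestinal epithelial cells, so that muscle, stromal and immune cells of the tissue keep the gene. The controls were littermates with the same floxed alleles and no Cre (Bmal1 fl/fl), and each genotype gave 4 mice at each of the 6 times, 48 mice in all.

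Mucus of the colon is built from MUC2, a secreted, heavily O-glycosylated mucin that goblet cells pack into granules and that forms a net once released. AGR2 is a disulfide isomerase of the endoplasmic reticulum needed to fold MUC2, FCGBP is a large protein bound into the secreted net, CLCA1 is a secreted metalloprotease that cuts MUC2 and loosens the inner layer, and ZG16 is a lectin that binds the wall of Gram-positive bacteria. MUC1, MUC3, MUC4 and MUC13 are anchored in the apical membrane of epithelial cells and make up the glycocalyx below the mucus. BMAL1, with its partner CLOCK, activates genes through E-box sequences in their control regions, which made the time of day and the loss of Bmal1 the comparisons of interest.

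The 10 genes lie on 5 chromosomes of GRCm38. Muc2 (ENSMUSG00000025515, chr7:141690340-141754693), Fcgbp (ENSMUSG00000047730, chr7:28071236-28120862) and Zg16 (ENSMUSG00000049350, chr7:127050156-127087328) are on chromosome 7. Muc3 (ENSMUSG00000037390, chr5:137134922-137149322) and Muc3a (ENSMUSG00000094840, chr5:137208813-137212389) lie 59.5 kb apart on the same strand of chromosome 5. The GENCODE vM21 transcripts of this pair shared 0 of the 1894 windows of 50 bases of Muc3, so that no stretch of 50 bases is common to these models. The start of Muc3 in RefSeq, at 137166046, lies upstream of its start in GENCODE, at 137149322. Muc4 (ENSMUSG00000079620, chr16:32735886-32782391) and Muc13 (ENSMUSG00000022824, chr16:33794037-33819934) are on chromosome 16, Muc1 (ENSMUSG00000042784, chr3:89229057-89233381) and Clca1 (ENSMUSG00000028255, chr3:145003817-145032776) on chromosome 3, and Agr2 (ENSMUSG00000020581, chr12:35992907-36004087) on chromosome 12. Of the exonic bases, 627 of the 11757 of Muc4 and 184 of the 3038 of Muc13 overlap genes on the other strand (Muc20 and Gm15657), and since the strand setting of the counting is not given in the sources used here, reads from these stretches cannot be told apart.

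Promoter sequences from RefSeq (GRCm38.p6) were used for 7 of the 10 genes, in 8 entries since Muc13 has a pair, and those of Muc3a, Clca1 and Zg16 were not analysed here. The 250 bases upstream of each start were searched on both strands for the E-box CACGTG, the related CACGTT, the D-box TTANGTAA, the RORE core TAGGTCA and the general E-box CANNTG, which includes the E-box itself. None of the first 4 motifs was found in any of the 8 windows, against shares of 6.02%, 3.85%, 2.06% and 2.23% of the 32851 windows of all genes, while CANNTG was in 8 of 8 against 66.2% of all. The windows of the most abundant gene (Muc2), of a gene that changed with the genotype (Fcgbp) and of 3 genes that cycled in at least 1 genotype (Agr2, Muc4 and the upstream start of Muc13) are printed 5′ to 3′ with each CANNTG in capitals. The letters are a description of these windows only and leave out sites farther from the start.
Muc2, chr7:141690090-141690339, plus strand: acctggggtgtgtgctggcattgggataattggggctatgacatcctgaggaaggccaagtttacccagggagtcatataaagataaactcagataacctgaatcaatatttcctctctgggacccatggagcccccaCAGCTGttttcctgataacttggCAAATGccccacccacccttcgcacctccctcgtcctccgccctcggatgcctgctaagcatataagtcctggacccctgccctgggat
Fcgbp, chr7:28070986-28071235, plus strand: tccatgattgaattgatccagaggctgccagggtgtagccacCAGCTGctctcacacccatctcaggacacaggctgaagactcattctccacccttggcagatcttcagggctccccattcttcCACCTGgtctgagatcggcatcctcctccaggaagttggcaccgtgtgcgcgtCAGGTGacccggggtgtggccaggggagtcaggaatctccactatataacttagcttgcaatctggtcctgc
Agr2, chr12:35992675-35992924, plus strand: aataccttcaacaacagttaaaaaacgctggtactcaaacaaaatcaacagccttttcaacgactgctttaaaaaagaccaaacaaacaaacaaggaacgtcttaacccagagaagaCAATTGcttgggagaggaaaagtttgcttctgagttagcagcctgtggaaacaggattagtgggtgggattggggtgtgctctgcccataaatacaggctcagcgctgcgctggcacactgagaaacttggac
Muc4, chr16:32735636-32735885, plus strand: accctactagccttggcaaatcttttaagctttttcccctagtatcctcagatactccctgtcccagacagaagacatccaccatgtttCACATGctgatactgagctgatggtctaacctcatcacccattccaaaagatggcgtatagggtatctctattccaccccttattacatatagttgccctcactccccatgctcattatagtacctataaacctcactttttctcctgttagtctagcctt
Muc13, chr16:33793787-33794036, plus strand: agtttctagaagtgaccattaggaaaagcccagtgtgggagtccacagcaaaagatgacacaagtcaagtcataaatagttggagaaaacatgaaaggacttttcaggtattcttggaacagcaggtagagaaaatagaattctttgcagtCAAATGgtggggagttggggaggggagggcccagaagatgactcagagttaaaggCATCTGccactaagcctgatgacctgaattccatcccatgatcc

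Total counts ran from 3144997 to 4785844 per mouse, and levels are given as CPM, the share of a gene in the counts of a mouse on a scale common to all mice (edgeR's cpm with TMM scaling of the libraries). The targeted gene Arntl (Bmal1) ranged from 4.13 to 74.0 CPM over the day in controls and from 22.4 to 47.2 CPM in Bmal1 IEC-/- mice, and its rhythm differed between genotypes (edgeR, adjusted p 9.40e-14) while its mean over the day did not pass the test (adjusted p 0.458). Epithelial markers were measured in every mouse, with a summed level of 8687 to 12371 CPM over 11 genes in controls and 10223 to 16720 CPM in Bmal1 IEC-/- mice, and markers of muscle, fibroblasts and immune cells were present as well, so the levels are those of a mixed tissue. In such bulk samples fewer cells of a type and less RNA per cell cannot be told apart. Bmal1 IEC-/- mice SV384 and SV385, both at CT1, stood apart from the others: the summed level of 7 smooth muscle genes was 981 CPM in SV385 and 3805 CPM in SV384 against 3502 to 5899 CPM in the remaining Bmal1 IEC-/- mice, so that SV384 was within the range, and that of 6 genes marking the distal colon was 2.71 CPM in SV385 and 9.06 CPM in SV384 against 10.5 to 24.1 CPM. The summed level of 6 Hox genes of the proximal to mid gut was below the others as well. It was 216 CPM in SV385 and 185 CPM in SV384 against 257 to 345 CPM. The levels of Muc2 and Muc3a in SV384 and SV385 were also the lowest of all mice. Results that rest on these mice are therefore given with and without them (46 mice), and their part in a result was not tested beyond that.

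The mucus genes took 1.71% to 3.25% of all counts of a mouse. Muc2 alone held 0.623% to 2.11% and ranked 2 among all genes by mean CPM. Per kilobase of exon, mean levels in controls were 2211 ± 359 CPM per kb for Muc2 (SD, n = 24), 1987 ± 366 for Agr2, 852 ± 138 for Muc3, 843 ± 172 for Zg16, 585 ± 73.2 for Muc13, 430 ± 68.7 for Clca1, 241 ± 33.9 for Muc3a, 162 ± 22.3 for Fcgbp, 16.7 ± 3.56 for Muc4 and 0.645 ± 0.241 for Muc1. The folding enzyme Agr2 thus did not differ from the mucin Muc2 beyond the spread between mice. That spread pools all circadian times, so equal levels are not shown. Muc3 and Zg16 did not differ beyond their spread either. This was not so for that pair in Bmal1 IEC-/- mice, where Zg16 stood at 1410 ± 270 CPM per kb (n = 24), clear of Muc3 at 627 ± 105, and Muc3 kept its place above Muc13 at 581 ± 58.5 but no longer differed from it beyond the spread. Agr2 at 1963 ± 492 and Muc2 at 1946 ± 555 again did not differ beyond theirs. The values of Muc3 use the exon length of its GENCODE model, which starts downstream of the RefSeq start, and its place depends on that length. Muc1 had 1 to 11 counts per mouse, too few for a change of moderate size to be detectable.

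The mucus genes differed between genotypes in both directions. In the model of circadian time and genotype over 48 mice, 5 of the 10 genes passed the test (edgeR quasi-likelihood, adjusted p under 0.05), against 12% of the 14618 genes tested: Zg16 and Fcgbp were higher in Bmal1 IEC-/- mice (2 of 10, against 6.40% of all genes) and Clca1, Muc3 and Muc3a lower (3 of 10, against 5.56%). The median log2 fold change of the 10 genes was -0.03, beside 0.0006 over all genes tested. The same 5 genes passed over 46 mice. Only Zg16 also exceeded 1.5-fold (1 of 10, against 1.35% of all genes), and a test against the 1.5-fold limit itself (edgeR glmTreat) called 0 of the 10, with 1 at an unadjusted p under 0.05.

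**Figure D1:**
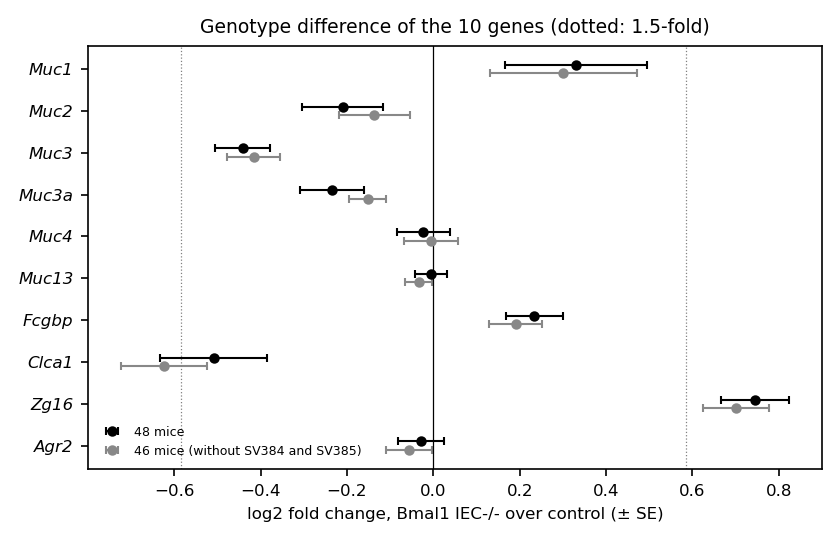
Log2 fold change of each mucus gene in Bmal1 IEC-/- over control mice across all circadian times, with its standard error, over 48 mice (black) and over 46 mice without SV384 and SV385 (grey). Zg16 lies at 0.74 and Fcgbp at 0.23, Clca1 at -0.51 over 48 and -0.62 over 46 mice, Muc3 at -0.44, and Muc4, Muc13 and Agr2 lie near 0.

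Zg16 showed the clearest separation. Its level had a lowest, median and highest value of 696, 1091 and 1410 CPM in the 24 controls and 1105, 1721 and 2553 CPM in the 24 Bmal1 IEC-/- mice. All but a pair of the Bmal1 IEC-/- mice (22 of 24) lay above the highest control, and 12 of the 24 controls lay below the lowest Bmal1 IEC-/- mouse. Zg16 rose 1.67-fold (log2 0.74 ± 0.08, SE, edgeR adjusted p 4.54e-10) and by log2 0.70 ± 0.08 over 46 mice (edgeR adjusted p 1.04e-09). The difference was present throughout the day, with means of 1815 ± 405 CPM in Bmal1 IEC-/- against 842 ± 112 CPM in controls at CT1 (SD, n = 4 each), 1788 ± 289 against 1156 ± 133 at CT5, 1980 ± 550 against 1117 ± 232 at CT9, 1871 ± 160 against 1116 ± 202 at CT13, 1560 ± 363 against 1081 ± 210 at CT17 and 1622 ± 118 against 1048 ± 321 at CT21. The mice of the genotypes did not overlap at CT1, CT5, CT13 and CT21. The test at CT5 and CT21 did not pass (edgeR adjusted p 0.247 and 0.202). How many of all genes separate in this way was not counted.

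Fcgbp moved in the same direction by a smaller step. It ranged from 1204 CPM over a median of 1748 to 2067 CPM in controls and from 1466 over 1898 to 2827 CPM in Bmal1 IEC-/- mice, and 8 of the 24 Bmal1 IEC-/- mice lay above the highest control. Fcgbp rose 1.18-fold (log2 0.23 ± 0.07, edgeR adjusted p 0.0128), and by log2 0.19 ± 0.06 over 46 mice (edgeR adjusted p 0.0389). Of the 11 epithelial markers 5 were higher and 0 lower over all mice, against 6.40% and 5.56% of all genes tested. Their summed medians were 10317 CPM in controls and 11030 CPM in Bmal1 IEC-/- mice. Over 46 mice Lgals4, Krt18 and Cdh1 were still called higher, and the other calls in this list were lost. Epcam was then called lower (log2 -0.10, edgeR adjusted p 0.0076), so the list did not move uniformly with Fcgbp. With the epithelial mean level as a covariate, the difference of Fcgbp was log2 0.13 ± 0.06 and no longer passed the test (edgeR adjusted p 0.146), while that of Zg16 was 0.69 ± 0.08 (edgeR adjusted p 6.08e-09).

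Clca1, the mucin-cutting protease, went the other way. It had a lowest, median and highest level of 1129, 1647 and 2243 CPM in controls and 505, 951 and 3374 CPM in Bmal1 IEC-/- mice, and 15 of the 24 Bmal1 IEC-/- mice lay below the lowest control. The highest value of all was that of SV385, while the remaining Bmal1 IEC-/- mice at CT1 had 950, 1113 and 910 CPM. Clca1 fell to 0.703 times the control level (log2 -0.51 ± 0.12, edgeR adjusted p 0.00375). Over 46 mice the fall was larger, to 0.649 times (log2 -0.62 ± 0.10, edgeR adjusted p 8.57e-06), and then also exceeded 1.5-fold. Between mice Clca1 varied more in Bmal1 IEC-/- than in control colon, with SDs of 356 CPM (46 mice) and 259 CPM around means of 1067 and 1625 CPM.

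**Figure D2:**
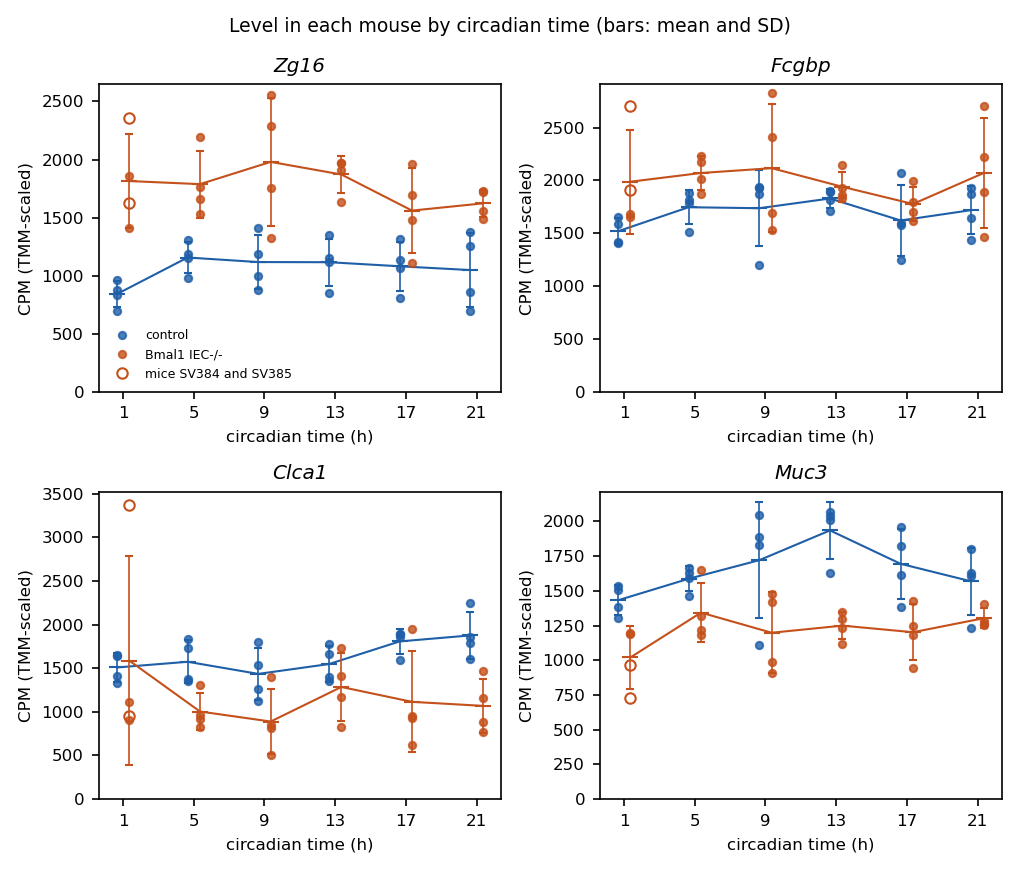
CPM of Zg16, Fcgbp, Clca1 and Muc3 in each mouse at the 6 circadian times, with the mean and SD of the 4 mice of a group, controls in blue and Bmal1 IEC-/- in orange, and SV384 and SV385 as open circles. Bmal1 IEC-/- mice have a higher mean of Zg16 and a lower mean of Muc3 at all 6 times, and a lower mean of Clca1 at 5 of 6, the exception being CT1 with SV385 at 3374 CPM.

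Zg16 and Clca1, both secreted into the mucus, shifted against each other. Per kilobase of exon the mean of Zg16 was above that of Clca1 in both genotypes, at 843 against 430 CPM per kb in controls and 1410 against 307 in Bmal1 IEC-/- mice. The ratio of their counts within a mouse needs no scaling between libraries, and since the exons of Clca1 are longer (3777 against 1257 bases), it serves to compare mice and not to rank the pair. Clca1 had more counts than Zg16 in 24 of 24 controls, with a log2 ratio of Zg16 to Clca1 from -1.36 over a median of -0.57 to -0.06. In Bmal1 IEC-/- mice the ratio ran from -0.52 over 0.80 to 1.80, with more counts for Zg16 in 22 of 24 mice, each of them above every control. This pair was chosen after its values were seen, and no test was made. Relative to Muc2, Zg16 had a median log2 ratio of -3.92 in controls and -2.99 in Bmal1 IEC-/- mice, and 16 of the 24 Bmal1 IEC-/- mice lay above every control.

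**Figure D3:**
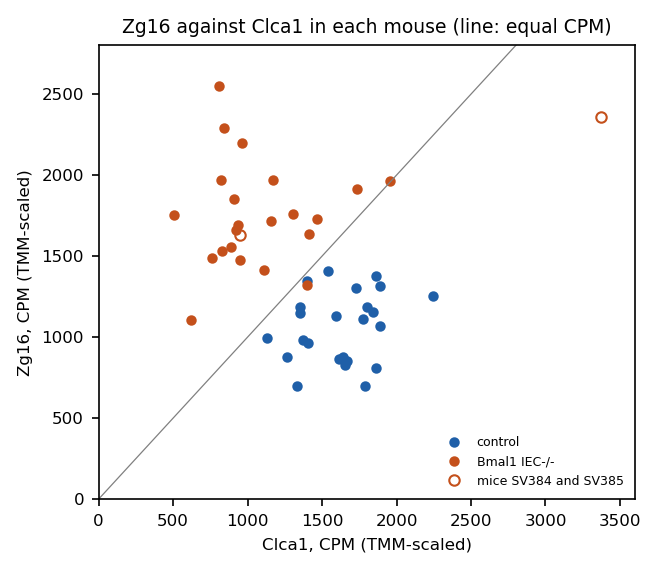
CPM of Zg16 against CPM of Clca1, 1 point for each of the 48 mice, with a line at equal CPM, which is not corrected for the length of the genes. The 24 controls (blue) lie below the line and 22 of the 24 Bmal1 IEC-/- mice (orange) above it, SV385 lying far to the right at 3374 CPM of Clca1.

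The membrane mucins of the chromosome 5 cluster were both lower. Muc3 had a lowest, median and highest level of 1112, 1628 and 2066 CPM in controls and 726, 1243 and 1650 CPM in Bmal1 IEC-/- mice, and 10 of the 24 controls lay above the highest Bmal1 IEC-/- mouse. Muc3 fell to 0.737 times the control level (log2 -0.44 ± 0.06, edgeR adjusted p 1.26e-06), and by nearly as much over 46 mice (log2 -0.42 ± 0.06, edgeR adjusted p 2.24e-06). Muc3a ranged from 333 over 455 to 576 CPM in controls and from 124 over 408 to 545 CPM in Bmal1 IEC-/- mice. Its lowest values, 124 and 137 CPM, were those of SV384 and SV385, and without them the lowest Bmal1 IEC-/- mouse had 338 CPM, inside the range of the controls. Muc3a fell to 0.850 times the control level (log2 -0.23 ± 0.07, edgeR adjusted p 0.0309) over 48 mice and to 0.900 times (log2 -0.15 ± 0.04, edgeR adjusted p 0.0116) over 46. The call was lost with the epithelial covariate (edgeR adjusted p 0.177) and without control mouse SV469 at CT1 (edgeR adjusted p 0.0560).

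The gel-forming mucin itself did not pass. Muc2 had a lowest, median and highest level of 10615, 15716 and 21213 CPM in controls and 7094, 13294 and 20602 CPM in Bmal1 IEC-/- mice, with a log2 difference of -0.21 ± 0.09 (edgeR adjusted p 0.133) and of -0.14 ± 0.08 over 46 mice (edgeR adjusted p 0.331). Of the 7 smooth muscle markers 1 was lower and 0 higher, with a summed level of 3936 to 6070 CPM in controls and 981 to 5899 CPM in Bmal1 IEC-/- mice, and of the 6 fibroblast markers 1 was lower and 0 higher; their part in the level of Muc2 was not tested. Agr2 differed by log2 -0.03 ± 0.05 (edgeR adjusted p 0.773), Muc4 by -0.02 ± 0.06 (edgeR adjusted p 0.856) and Muc1 by 0.33 ± 0.16 (edgeR adjusted p 0.189). Muc13 was at 0.997 times the control level, with an SE of 0.04 on the log2 scale (edgeR adjusted p 0.955). For Agr2, Muc4 and Muc13 a difference of 1.5-fold lay many standard errors from these values, whereas for Muc1 the error is wide.

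At single circadian times the genes called were few. Of the 10 genes, Zg16, Muc2, Muc3 and Muc3a passed at CT1 (4 of 10), where 24.7% of all genes passed. Zg16 alone passed at CT9, where 1.46% of all genes did, and Zg16 and Muc3 passed at CT13, where 3.58% did. None of the 10 passed at CT5, CT17 or CT21, where 0.376%, 0.876% and 0.328% of all genes did. Over 46 mice the calls were Zg16 at CT1, CT9 and CT13 and Muc3 at CT9 and CT13, and at CT1 only 1.21% of all genes passed.

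The call of Muc2 at CT1 did not hold without both mice that stood apart. It stood at 16992, 18243, 19018 and 16189 CPM in the 4 controls and at 7197 CPM in SV384, 7094 in SV385 and 11236 and 11582 CPM in the other two Bmal1 IEC-/- mice. All 4 lay below the controls, and the difference was log2 -0.92 ± 0.19 (edgeR adjusted p 0.000706). Without SV384 and SV385 it was -0.63 ± 0.23 and did not pass (edgeR adjusted p 0.141). The next lowest group was Bmal1 IEC-/- at CT13 with 11195, 13023, 9389 and 10652 CPM against 16691, 14712, 13028 and 17576 CPM in controls, a log2 difference of -0.49 ± 0.19 that did not pass either (edgeR adjusted p 0.171). Muc3a at CT1 also lost its call, and its difference shrank more. It went from log2 -0.69 ± 0.18 (edgeR adjusted p 0.00411) over 48 mice to -0.17 ± 0.13 (edgeR adjusted p 0.534) over 46. The call of Muc3 at CT1 was lost as well, from log2 -0.49 ± 0.16 (edgeR adjusted p 0.0186) to -0.27 ± 0.18 (edgeR adjusted p 0.473).

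**Figure D4:**
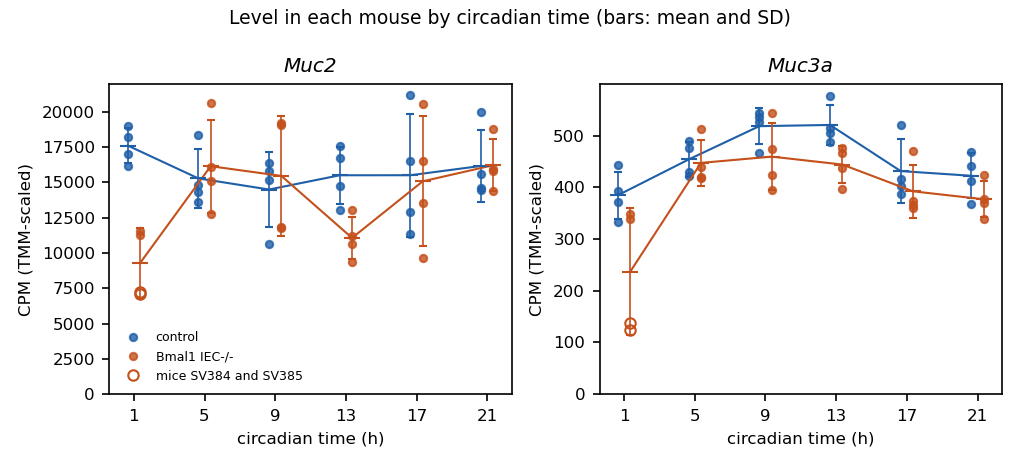
CPM of Muc2 and Muc3a in each mouse at the 6 circadian times, with the mean and SD of the 4 mice of a group, controls in blue, Bmal1 IEC-/- in orange and SV384 and SV385 as open circles. The open circles at CT1 are the lowest points of both panels, at 7197 and 7094 CPM of Muc2 and 124 and 137 CPM of Muc3a.

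Several of the mucus genes cycled over the day. Rhythm was tested in each genotype with JTK_cycle at a period of 24 h, with q-values over 32527 genes. In controls 4 of the 10 genes were rhythmic (Agr2, Muc13, Muc3a and Muc3), against 15.4% of all genes with a count. Of the 10, 2 were in Bmal1 IEC-/- mice (Agr2 and Muc4), against 4.14% of all genes with a count. The genes with a count include many of low level, and the shares among genes of like level are not given.

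Agr2, the folding enzyme, had the clearest rhythm, with its peak around CT0 in both genotypes. In controls it stood at 3047, 3453, 3579 and 2537 CPM at CT1 and at 2063, 2259, 1953 and 2059 CPM at CT13 (JTK_cycle q 0.000264). It stood in Bmal1 IEC-/- mice at 3683, 3744, 3541 and 2871 CPM at CT1 and at 1778, 1745, 1881 and 1962 CPM at CT13 (JTK_cycle q 0.00331, and 0.0189 over 46 mice). All mice at CT1 were above all mice at CT13 in each genotype. These times had the highest and lowest mean, so the separation is a description only. A cosine fit gave a peak-to-trough fold of 1.53 in controls and 1.62 in Bmal1 IEC-/- mice, with peaks at 23.5 h and 0.00 h.

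Muc4 peaked near Agr2, at 22 h in both genotypes. Its means in controls were 229 ± 41.5 CPM at CT1 (SD, n = 4), 188 ± 34.7 at CT5, 154 ± 15.2 at CT9, 172 ± 35.7 at CT13, 217 ± 48 at CT17 and 219 ± 29.0 at CT21. At the same times they were 202 ± 23.8, 204 ± 48.3, 153 ± 14.1, 149 ± 7.14, 224 ± 35.6 and 233 ± 16.2 CPM in Bmal1 IEC-/- mice. The q-values lay on either side of the threshold, 0.0603 in controls and 0.0397 in Bmal1 IEC-/- mice, and the cosine test of edgeR called both (adjusted p 0.00341 and 0.00310). The peak-to-trough folds were 1.47 and 1.54.

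Muc13 peaked in the subjective night in controls. Its means were 1661 ± 176, 1661 ± 101, 1517 ± 115, 1812 ± 88.7, 2076 ± 128 and 1944 ± 129 CPM from CT1 to CT21 (SD, n = 4 each), with a JTK_cycle q of 0.00393 and a peak at 18 h. All 4 controls at CT17 (1920 to 2212 CPM) were above all 4 at CT9 (1353 to 1607 CPM). These are the times of the highest and lowest mean, so the separation is a description only. The means in Bmal1 IEC-/- mice were 1897 ± 305, 1683 ± 96.6, 1636 ± 68.0, 1664 ± 151, 1871 ± 134 and 1844 ± 54.7 CPM (JTK_cycle q 0.128), where the value at CT1 includes SV385 at 2354 CPM beside 1728 to 1768 CPM in the other mice. The cosine peak-to-trough fold was 1.32 in controls and 1.17 in Bmal1 IEC-/- mice.

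**Figure D5:**
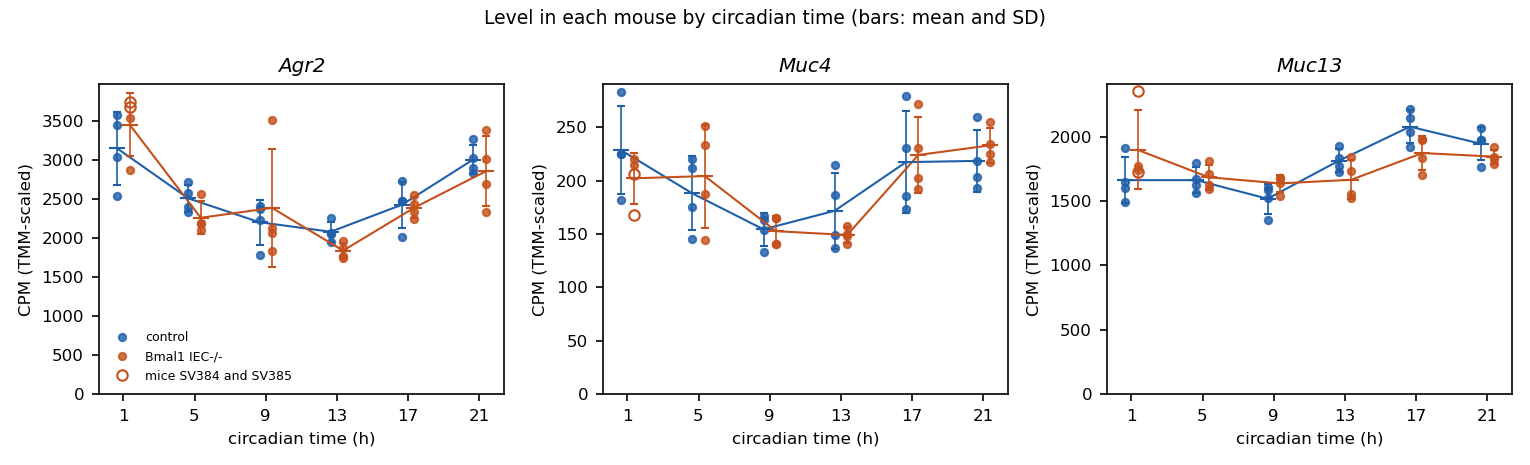
CPM of Agr2, Muc4 and Muc13 in each mouse at the 6 circadian times, with the mean and SD of the 4 mice of a group, controls in blue, Bmal1 IEC-/- in orange and SV384 and SV385 as open circles. Agr2 is highest at CT1 and lowest at CT13 in both genotypes, and Muc13 in controls is lowest at CT9 (1517 CPM) and highest at CT17 (2076 CPM).

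Muc3 and Muc3a peaked about 12 h from Agr2. In controls Muc3a rose from 385 ± 45.5 CPM at CT1 to 519 ± 35.4 at CT9 and 521 ± 38.5 at CT13 (SD, n = 4), with a JTK_cycle q of 0.0100 and a peak at 10 h, and Muc3 from 1432 ± 108 CPM at CT1 to 1935 ± 208 at CT13, with a q of 0.0325 and a peak at 12 h. In Bmal1 IEC-/- mice the means of Muc3a ran from 237 ± 123 CPM at CT1 to 460 ± 65.3 at CT9 (JTK_cycle q 0.0761, and 0.173 over 46 mice). Those of Muc3 ran from 1020 ± 224 CPM at CT1 to 1343 ± 212 at CT5 (JTK_cycle q 1). Without SV384 and SV385 the mean of Muc3 at CT1 was 1195 CPM. Muc2, Fcgbp, Zg16 and Muc1 had q-values of 1 in each genotype. Clca1 had q-values of 0.265 and 1, and the cosine test of edgeR called it in controls (adjusted p 0.0302).

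None of these differences in rhythm passed a test of the difference itself. The model of genotype by cosine and sine of circadian time called 0 of the 10 genes (edgeR), against 1.92% of all genes, with 1 gene (Muc13) at an unadjusted p under 0.05 and an adjusted p of 0.218. DESeq2 called 0 of the 10 as well, with 1 at an unadjusted p under 0.05. A rhythm called in controls and missed in Bmal1 IEC-/- mice is thus not shown to have been lost.

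Other genes of mucus formation were counted from 5 lists. Of 29 tested genes that build the O-glycans of mucins, 4 rose and 5 fell in Bmal1 IEC-/- mice (against 6.40% and 5.56% of all genes tested), and the list had its median log2 fold change at -0.07. The core 2 and core 4 enzyme Gcnt3 fell (log2 -0.26 ± 0.04, edgeR adjusted p 4.82e-06), as did B3gnt7 (-0.68 ± 0.12, edgeR adjusted p 7.14e-05), and the sialyltransferase St3gal1 rose (0.40 ± 0.06, edgeR adjusted p 4.28e-06). Of these 29 genes 17 were rhythmic in controls and 4 in Bmal1 IEC-/- mice by JTK_cycle, against 15.4% and 4.14% of all genes with a count, which include many of low level. The rhythm of 1 differed between genotypes, against 1.92% of all genes tested, which is close to the share over all genes. Of 7 tested other mucins and mucin-like proteins 1 was lower, the adhesion protein Cd24a (log2 -0.38 ± 0.05, edgeR adjusted p 4.88e-08), and 0 were higher, a share close to the 12% of all genes called.

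Of 26 tested genes of mucus granules, secretion and processing, 8 were lower (against 5.56% of all genes) and 2 higher (against 6.40%, a like share), with the median log2 fold change of the list at -0.04. Those lower included Syt7, a calcium sensor of vesicle release (log2 -0.44 ± 0.04, edgeR adjusted p 1.06e-11), the chloride and bicarbonate exchanger Slc26a3 (-0.78 ± 0.08, edgeR adjusted p 2.81e-10) and the transglutaminase Tgm3 (-1.76 ± 0.25, edgeR adjusted p 7.40e-07). Tgm3 had a low level (mean log2 CPM 0.49), so its fold change rests on few counts. Of 15 factors and regulators of goblet cells 2 were higher and 1 lower, with a median of 0.05, beside 6.40% and 5.56% of all genes, so that the count of lower genes was near that over all genes. Nlrp6, an inflammasome sensor, rose (log2 0.16 ± 0.04, edgeR adjusted p 0.0148) and Ern2, an endoplasmic reticulum stress sensor of goblet cells, fell (-0.21 ± 0.05, edgeR adjusted p 0.00568).

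Of 16 other goblet cell markers 5 were higher (against 6.40% of all genes) and 3 lower (against 5.56%), with a median of -0.01. Ramp1 (log2 0.41 ± 0.06, edgeR adjusted p 3.71e-06), Spink4 (0.39 ± 0.06, edgeR adjusted p 1.16e-05) and Tmed3 (0.21 ± 0.04, edgeR adjusted p 4.41e-05) had the smallest p-values, all higher. Over 46 mice the counts of genes called in the 5 lists were 1, 11, 4, 9 and 9 beside 1, 9, 3, 8 and 10 over 48, in the order other mucins, glycosylation, factors, markers and granules.

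Genes outside the list whose log2 CPM followed that of a mucus gene most closely over the 48 mice are given as a description by Pearson r. For Zg16 they were Retnlb (r 0.81), a bactericidal goblet cell protein, 2610528A11Rik (0.81), the bile acid transporter subunit Slc51a (0.80), Ggh (0.78) and Hsd3b3 (0.77), and all 5 had a positive log2 fold change, from 0.32 for Hsd3b3 to 4.54 for Retnlb. For Muc3 they were Tbc1d16 (0.82), the sodium channel subunit Scnn1a (0.72), Zmiz1 (0.71), Thbs4 (0.71) and Ces1d (0.70), all with negative log2 fold changes. For Clca1 no gene came close: the highest were Epop (0.60), the vitamin D receptor Vdr (0.60), Slc3a1 (0.59), Lypd8 (0.59) and the carbonic anhydrase Car4 (0.58).

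The closest genes of Muc2 included several of the extracellular matrix. They were the laminins Lama4 (r 0.79) and Lamc1 (0.78), fibronectin Fn1 (0.78), Akap12 (0.76) and Adgrd1 (0.73), and without SV384 and SV385 r was 0.77, 0.81, 0.85, 0.74 and 0.66. Those of Muc13 were Sdr42e1 (0.80), the adhesion protein Ceacam1 (0.79), the disulfide isomerase Pdia4 (0.78), the copper transporter Slc31a1 (0.78) and the proteasome subunit Psmd2 (0.78). Those of Fcgbp were Gpi1 (0.77), Lrp10 (0.76), Qsox1 (0.75), Tmbim6 (0.74) and Atp5a1 (0.74). For Muc3a they were Akap8l (0.90), Snrnp70 (0.90), Prr33 (0.89), Safb2 (0.89) and Vamp2 (0.89), but over 46 mice r was between 0.58 and 0.68, so that the likeness rests in large part on SV384 and SV385. All of these correlations are over mice of both genotypes and all times, and so contain the differences between the groups.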

How the data were processed

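RNA of whole colon from 48 mice, 24 of each genotype and 4 at each of 6 circadian times, was sequenced from stranded poly(A) libraries. Per the paper's methods and the submitters' processing notes, the authors trimmed reads with Trimmomatic 0.39, aligned them to mm10 with STAR 2.7.5c and counted exonic reads with featureCounts 1.4.6, and analysed them with DESeq2 1.22.0. The strand setting and annotation release are not given in the sources used here. The deposited values are whole-number counts per gene made by the authors, without normalization. Every column was mapped to a sample. Of 55401 identifiers, 55141 matched GENCODE vM21.

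Genes kept by filterByExpr were tested with edgeR 4.0.16 (TMM scaling, quasi-likelihood F test, Benjamini-Hochberg adjustment over 14618 genes, threshold 0.05) in a model of circadian time and genotype, with 12 groups for single times and with genotype by cosine and sine terms for rhythm. JTK_cycle (own implementation, 12 phases 2 h apart at a period of 24 h, with the exact null) was run in each genotype over the 32527 genes with a count, on levels scaled between libraries. The standard error of a log2 fold change is its size divided by the square root of F. Prior count was 2 for log2 CPM. The genotype and rhythm models and JTK_cycle were tested on simulated data. The alternatives were other scalings and filters, DESeq2 1.42.0, glmTreat, an epithelial covariate, other rhythm tests, and leaving out each mouse, each time or SV384 and SV385. R 4.3.3, Python 3.11.15, pandas 2.3.3, numpy 2.4.6, scipy 1.17.1 and matplotlib 3.10.9 were used.

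The members and lists were chosen with earlier results of these data known. Genes named are the 10 members, Arntl, the epithelial marker Epcam, at most 3 genes with the smallest adjusted p of each list, and the 5 genes most alike to Muc2, Muc13 and each member called. A result that this rule would name is not reported here. Recounting the lists over 46 mice was chosen after seeing the data. St6galnac2 has 2 identifiers, of which the first was used. Counts of replicate mice differed by 2.01 to 16.3 in chi-square per gene over 72 pairs, so no library was counted as a copy of another. Precision is limited by the counts of a gene, and 0 counts of a gene allow up to 3. Mice are separate animals, and no labels give a batch.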

Additional observations from a re-analysis of the deposited data

Results flagged for a closer look

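In 8 of the 120 groups of 4 mice (10 genes at 12 combinations of genotype and time), 1 mouse lay farther from its neighbours than Dixon's limit allows, where chance gives about 1 in 20 groups, or 6. Both flags with the largest distance are those of SV385, Bmal1 IEC-/- at CT1: Muc13 at 2354 CPM beside 1728 to 1768 CPM in the others, and Clca1 at 3374 CPM beside 910 to 1113 CPM. In this mouse the smooth muscle markers summed to 981 CPM and the epithelial markers to 16720 CPM, and their part in these values was not tested.

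Among controls, Fcgbp stood at 1204 CPM in SV415 at CT9 beside 1873 to 1941 CPM in the others, Muc3 at 1626 CPM in SV421 at CT13 beside 2007 to 2066 CPM, and Clca1 at 1593 CPM in SV438 at CT17 beside 1860 to 1888 CPM. Muc1 stood at 2.75 CPM in SV412 at CT9 beside 1.17 to 1.38 CPM. In Bmal1 IEC-/- mice at CT17, SV437 had Muc3a at 470 CPM beside 361 to 373 CPM and Muc1 at 1.45 CPM beside 2.22 to 2.35 CPM.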

How the results depend on the processing

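The count of genes called between genotypes, 5 of 10, was 4 or 5 under the other scalings, filters and DESeq2, over 46 mice, without the time term, and without each time or mouse, and 3 with the epithelial covariate, where Fcgbp and Muc3a lost their calls. Muc3a also lost its call without the time term and without CT9, CT13, CT17 or CT21, and Fcgbp without CT1. The count past 1.5-fold, 1, was 2 over 46 mice, with the epithelial covariate and without CT1, where Clca1 joined Zg16, and 0 with glmTreat, and it ran from 1 to 2 without each mouse (2 without SV385). Calls at single times numbered 7, but 18 without a filter on low counts. Rhythmic genes in controls numbered 4, and 3 to 6 under the alternatives. Rhythmic genes in Bmal1 IEC-/- mice numbered 2, but 4 when q was adjusted for phase only and 1 on CPM by library total, and 1 to 3 without each mouse. Muc4 there lost its call in 15 of 48 such runs, and Muc3 in controls in 9 of 48. Over all times, no log2 fold change of a called gene changed sign under any alternative run, whereas that of Clca1 at CT1, which was not called, was 0.07 over 48 mice and -0.59 over 46. The cause of these shifts was not tested. No paired analysis was possible because the mice carry labels of their own and share no replicate number. Depth limits Muc1, with at most 11 counts in a mouse, and the strict filter and leaving out CT9 removed it.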
